A study of Mus musculus with 6 samples.

Results

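The Ssx genes are a family of X-linked testis genes, and their transcripts were measured here on 9 transcript clusters of the Affymetrix MoGene 1.0 ST array. The array gives 1 value per transcript cluster, a set of probes assigned to 1 gene or to several near-identical ones. The clusters were chosen by name: every cluster of the 35556 in the table whose annotated symbols include an Ssx gene. The family was taken up because Ssxb3 stood out in earlier work on these arrays, with a difference between knockout and wild type that was further below 0 in round spermatids than in pachytene spermatocytes. Knockout against wild type is therefore described below with no test. All 9 are among the 20970 named clusters that passed the filter on low values, but Ssxb3 and Ssxa1 passed it through the wild-type round spermatid array alone. These 2 had to lie high there, so their values are given without a test, and counts are over the other 7 clusters unless stated. Of the 9 clusters, 6 name a single gene (Ssxb3, Ssx9, Ssxb5, Ssxb10, Ssxb2 and Ssxa1). The other 3 name several genes at once, 1 of them 5 genes (Ssxb1, Ssxb2, Ssxb3, Ssxb9 and Ssxb10) and 2 of them 11 genes each, and are called the 5-gene cluster and the 11-gene clusters A and B. Both 11-gene clusters list Ssx9 and 8 Ssxb genes with the predicted genes Gm6592 and Gm14459. The cluster for Ssx2ip matches the letters of the name only. Its gene lies on chromosome 3, encodes a centrosomal protein known as a binding partner of SSX, and is described with the partner genes.

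SSX proteins are nuclear repressors of transcription that have no DNA-binding domain of their own. They carry a KRAB-related domain at the amino end and a repression domain, SSXRD, at the carboxyl end, through which they bind nucleosomes with ubiquitylated histone H2A. In humans the genes are best known from synovial sarcoma, where a translocation joins SS18, a subunit of the BAF chromatin remodelling complex, to an SSX gene, and as cancer-testis antigens. The X chromosome is silenced in pachytene spermatocytes, and many multicopy X-linked genes are transcribed after meiosis, in round spermatids.

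Germ cells came from C57BL/6 mice, either wild type (WT) or with a knockout of Rnf8 (KO), which encodes a histone ubiquitin ligase of the DNA damage response that also works on meiotic sex chromosomes. Pachytene spermatocytes (PS, in meiotic prophase) and round spermatids (RS, haploid cells after meiosis) had been separated through a BSA gradient by gravity, from the pooled cells of 3 to 4 males. Pachytene cells had 2 arrays of each genotype and round spermatids 1 of each. Titles number both spermatid arrays as replicate 2, and no first spermatid replicate was analysed here. The labels give the genotype and strain but no age of the mice and no design of the knockout allele, and no label says that the arrays of a group are separate preparations, so the spread between them may be technical. In such purified fractions, fewer cells of a type and less RNA per cell cannot be told apart.

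The fractions were checked against marker lists. In the limma fit described below, at an adjusted p of 0.05, 6 of 8 pachytene markers were lower in round spermatids (16.2% of all tested clusters were). Of the spermatid markers 6 of 8 were higher (17.8% of all were), and the protamine genes Prm1 and Prm2 did not pass. Both were also high on the pachytene arrays, Prm1 at log2 12.85 to 13.18 and Prm2 at 13.25 to 13.44. On the WT and KO spermatid arrays Prm1 lay at 13.23 and 13.20, and Prm2 at 13.56 and 13.51. The source of this pachytene signal was not tested. The only Rnf8 cluster, which also lists Gm28043, lay at log2 8.51 and 8.86 in WT and 7.86 and 8.05 in KO pachytene cells. In round spermatids the WT array read 7.78 and KO was 0.28 lower. Since the deleted part is not described, its probes may lie outside it, and then the value checks nothing. Median log2 values of the 6 arrays lay between 7.62 and 7.77 and lower quartiles between 6.15 and 6.28. A value at or below the lower quartile of its own array is called dim below, and no fold or size is read where every array on 1 side of a comparison is dim.

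In the RefSeq table of GRCm38.p6, 10 of the 11 Ssx genes stand in 1 block near the start of the X chromosome, from Ssxb10 to Ssxb5, with 3 other genes among them. Ssxa1 stands apart, further along X. No cluster names Ssxb7. Ssxb1, Ssxb6, Ssxb8 and Ssxb9 are named only by shared clusters. Single-gene clusters are not free of overlap either: every accession listed for Ssxb10, Ssxb5 and Ssxb2, and 3 of 5 for Ssxb3, is also listed for a shared cluster, but none of those for Ssx9 and Ssxa1. A signal of 1 copy may therefore include another, and only Ssx9 and Ssxa1 list accessions of their own alone.

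RefSeq start-site windows of GRCm38.p6, 250 bases before to 50 after the start, were found for 9 of the 11 Ssx genes. Those of 4 genes with a single-gene cluster are printed 5′ to 3′ because they show the sequence groups within a family whose members rose together. Capitals mark a match, on either strand, to the core of the cyclic AMP response element (CRE, letters TGACG), the CCAAT box (these letters), the TATA box (letters TATAAA) or the GC box (letters GGGCGG). A match is only a description of the letters.

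Ssxb3, chrX:8591767-8592066, minus strand: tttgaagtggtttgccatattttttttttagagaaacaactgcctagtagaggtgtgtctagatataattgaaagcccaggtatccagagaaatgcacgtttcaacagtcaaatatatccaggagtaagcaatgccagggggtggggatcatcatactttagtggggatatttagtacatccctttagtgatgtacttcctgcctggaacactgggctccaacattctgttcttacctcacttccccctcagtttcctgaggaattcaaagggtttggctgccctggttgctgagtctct

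Ssxb2, chrX:8461677-8461976, minus strand: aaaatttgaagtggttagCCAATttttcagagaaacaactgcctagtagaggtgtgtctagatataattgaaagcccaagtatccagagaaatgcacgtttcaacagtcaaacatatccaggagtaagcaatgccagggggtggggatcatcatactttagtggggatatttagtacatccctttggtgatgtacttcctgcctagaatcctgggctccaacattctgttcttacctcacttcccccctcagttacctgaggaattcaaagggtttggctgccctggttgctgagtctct

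Ssx9, chrX:8748180-8748479, plus strand: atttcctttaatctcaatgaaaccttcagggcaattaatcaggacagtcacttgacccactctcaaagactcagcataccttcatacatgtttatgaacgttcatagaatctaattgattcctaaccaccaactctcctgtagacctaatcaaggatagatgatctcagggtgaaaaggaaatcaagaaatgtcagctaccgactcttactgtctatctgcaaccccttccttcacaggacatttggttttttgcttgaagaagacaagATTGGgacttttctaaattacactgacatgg

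Ssxb5, chrX:8803441-8803740, plus strand: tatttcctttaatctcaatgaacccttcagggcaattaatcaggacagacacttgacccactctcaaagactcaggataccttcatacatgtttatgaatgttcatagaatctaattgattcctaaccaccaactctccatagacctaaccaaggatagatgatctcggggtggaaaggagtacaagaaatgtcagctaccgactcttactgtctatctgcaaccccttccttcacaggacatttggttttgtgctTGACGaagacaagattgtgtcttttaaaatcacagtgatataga

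The windows fall into sequence groups that cut across the order of the genes. Ssxb3 and Ssxb2 were identical at 93.8% of aligned positions, and Ssx9 and Ssxb5 at 92.1%, but Ssxb2 and Ssx9 only at 49.9%. That last value lies within those of Ssxa1 against the other windows, 49.0% to 52.7%. The windows of Ssxb6, Ssxb7 and Ssxb8 were closer to that of Ssxb5 (61.9%, 76.2% and 71.3%) than to that of Ssxb3 (48.6%, 51.0% and 49.2%), and the window of Ssxb1 was close to that of Ssxb3 (92.8%). None of the 9 windows held the TATA box, found in 13.6% of all 32851 windows of this length, or the GC box, found in 35.7%. None held the full CRE (letters TGACGTCA, which contain the core), found in 1.79%. A CCAAT match was found in 4 of 9 (37.4% of all windows) and the CRE core in 1 of 9, that of Ssxb5 (20.8% of all windows).

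The Ssx clusters rose from pachytene spermatocytes to round spermatids. In a limma fit of genotype and cell type over the 6 arrays, 7 of 7 passed an adjusted p of 0.05, against 17.8% of the 20970 named clusters tested and 44.1% of the 762 X-linked ones. Both spermatid arrays lay above all 4 pachytene arrays in 6 of 7, against 24.4% of all and 49.3% of X-linked clusters. The median rise was 1.58 on the log2 scale (median of all clusters -0.05, of X-linked clusters 0.31). The filter asked for log2 6 on at least 1 array.

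Ssxb3 was dim on every array but one. Its log2 values were 5.58 and 5.63 in WT pachytene cells, 5.31 and 5.42 in KO pachytene cells, 7.59 on the WT and 5.93 on the KO spermatid array. The WT round spermatid array stood alone above the lower quartile, and both spermatid arrays lay above all 4 pachytene arrays. No rise is tested, since the filter kept Ssxb3 for that array.

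Ssx9, which the reference also calls Ssxb4, was above the lower quartile on 5 arrays and level with it on KO pachytene array 2, both at 6.28. It lay at 6.51 and 6.73 in WT and 6.65 and 6.28 in KO pachytene cells, and at 8.34 and 6.85 in the WT and KO spermatid arrays. The KO spermatid value was above the highest pachytene value by less than the gap between the KO pachytene arrays, 0.37. The fitted rise of 1.05 (SE 0.29, limma adjusted p = 0.0266) averages 1.72 in WT, or 3.30-fold, and 0.38 in KO.

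Ssxb5, the last gene of the block, was at 6.60 and 6.65 in WT and 6.55 and 6.42 in KO pachytene cells, so these 4 arrays lay close together. It reached 8.73 in WT spermatids and 7.55 in KO ones, and both stood clear of every pachytene array. The fitted rise was 1.58 (SE 0.22, limma adjusted p = 0.00159). It came to 4.29-fold in WT and 2.08-fold in KO cells.

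Ssxb10 and Ssxb2 had each 1 dim array, KO pachytene array 2. Ssxb10 lay at 6.41 and 6.63 in WT and 6.21 and 5.93 in KO pachytene cells, and at 7.65 and 6.50 in the WT and KO spermatid arrays. The KO spermatid value thus fell within the pachytene range. Ssxb2 lay at 6.94 and 7.12 in WT and 6.94 and 6.18 in KO pachytene cells, and at 8.97 and 7.92 in WT and KO round spermatids, both above every pachytene array. Fitted rises were 0.78 for Ssxb10 (SE 0.18, limma adjusted p = 0.0144) and 1.65 for Ssxb2 (SE 0.23, limma adjusted p = 0.00162).

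Ssxa1, the member outside the block, was the dimmest. It lay at 5.21 and 5.48 in WT and 5.18 and 5.12 in KO pachytene cells, and at 6.28 in WT spermatids and 5.37 in KO ones. Only the WT spermatid array was above its lower quartile, and the KO spermatid value lay among the pachytene values. As for Ssxb3, no rise is tested.

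The 3 shared clusters rose too, in the fit by more than Ssx9 and Ssxb10 did. The 5-gene cluster was at 7.96 and 8.29 in WT and 7.87 and 7.38 in KO pachytene cells, and at 9.80 in WT spermatids and 9.10 in KO ones. Cluster A was at 7.94 and 8.09, 8.16 and 7.34, 9.85 and 9.21 in the same order of groups, and cluster B at 7.91 and 7.97, 8.15 and 7.22, 9.95 and 9.41. In all 3, both spermatid arrays stood clear of the highest pachytene array. Fitted rises were 1.57 (SE 0.17), 1.65 (SE 0.22) and 1.87 (SE 0.24), with limma adjusted p = 6.75e-04, 0.00148 and 0.00117.

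The count of 7 rests on few arrays. Without the WT round spermatid array 5 passed, and the rise was 0.43 for Ssxb10 (limma adjusted p = 0.273) and 0.38 for Ssx9 (limma adjusted p = 0.382). Without the KO round spermatid array all 7 passed, with rises of 1.13 for Ssxb10 and 1.72 for Ssx9. Ssx9 did not pass without WT pachytene array 1, nor did Ssx9 and Ssxb10 without WT pachytene array 2. Leaving out either KO pachytene array kept all 7.

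**Figure D1:**
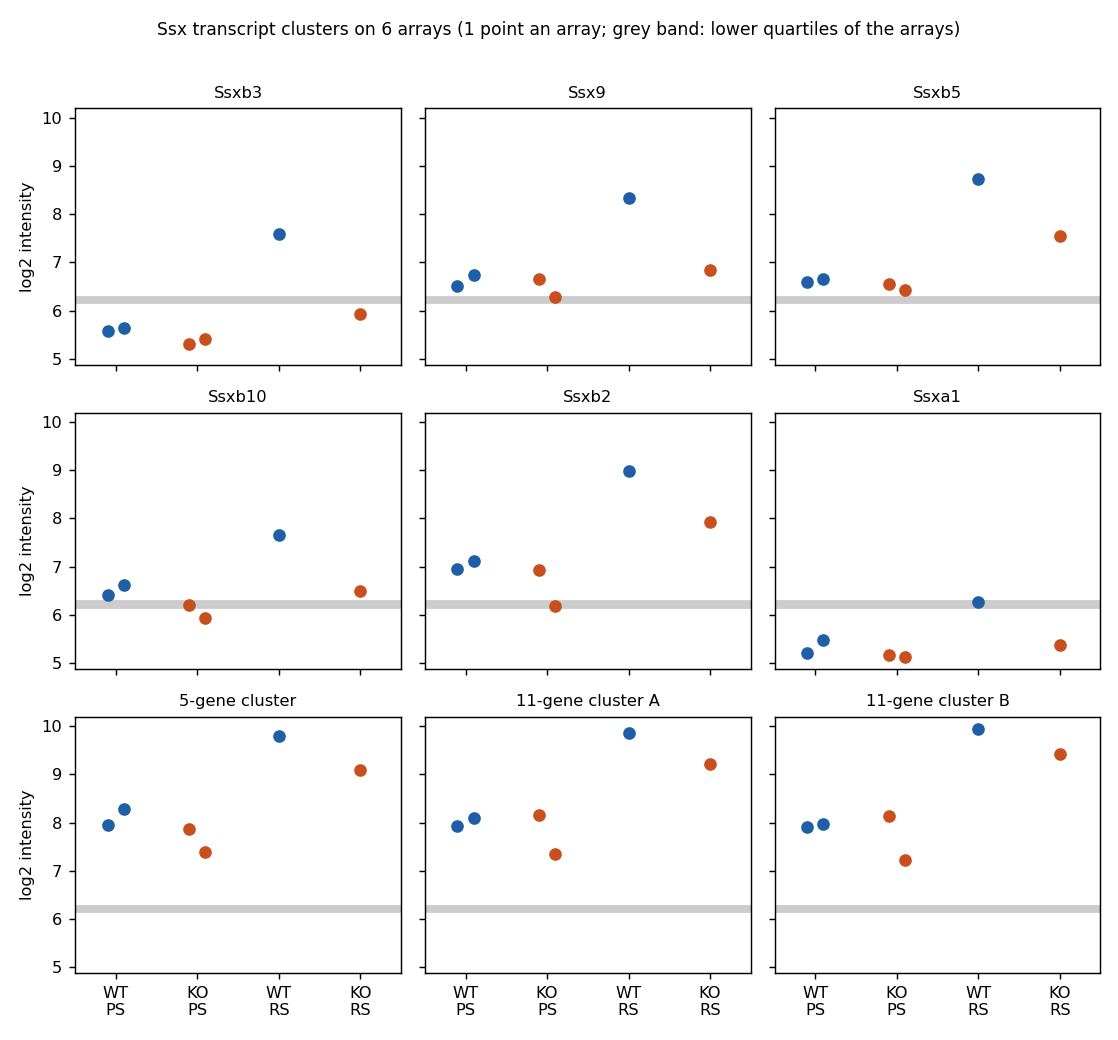
Log2 intensity of the 9 Ssx clusters on each array, with WT in blue and KO in orange, pachytene spermatocytes (PS) on the left and round spermatids (RS) on the right of each panel. Every panel has its highest point on the WT round spermatid array, and Ssxb3 and Ssxa1 lie below the grey band of lower quartiles (6.15 to 6.28) elsewhere.

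Between genotypes the round spermatid arrays differed in every Ssx cluster. All 7 lay lower in KO, and 4 of 7 by at least 1 on the log2 scale, which is 2-fold. Over all tested clusters 43.2% lay lower in KO and 0.672% at least 2-fold lower, and over X-linked clusters 48.8% and 7.87%. These shares are background only, since the family was taken up on this contrast. There was 1 array of each genotype, so the differences have no replicate check. The differences were -1.50 for Ssx9, -1.18 for Ssxb5, -1.15 for Ssxb10 and -1.06 for Ssxb2. As folds, KO was 2.83-fold lower for Ssx9, 2.27-fold for Ssxb5, 2.22-fold for Ssxb10 and 2.08-fold for Ssxb2. Ssxb3 went from 7.59 in WT to a dim 5.93 in KO and Ssxa1 from 6.28 to a dim 5.37, so both were lower in KO by an amount that is not read here.

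The shared clusters differed less between genotypes than the 4 single-gene clusters did, at -0.70 for the 5-gene cluster, -0.64 for cluster A and -0.54 for cluster B, or 1.62-fold, 1.56-fold and 1.45-fold. The KO pachytene arrays, which are replicates, differed by 0.82 in cluster A and 0.92 in cluster B, more than the genotypes did in round spermatids. For the 5-gene cluster that replicate gap was 0.49, below its genotype difference. It was also below it for the single-gene clusters, at 0.76 for Ssxb2, 0.37 for Ssx9, 0.28 for Ssxb10 and 0.13 for Ssxb5. A gap between pachytene arrays does not measure the spread of round spermatid arrays, which had no replicate. The WT pachytene arrays differed by at most 0.33 in any Ssx cluster.

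**Figure D2:**
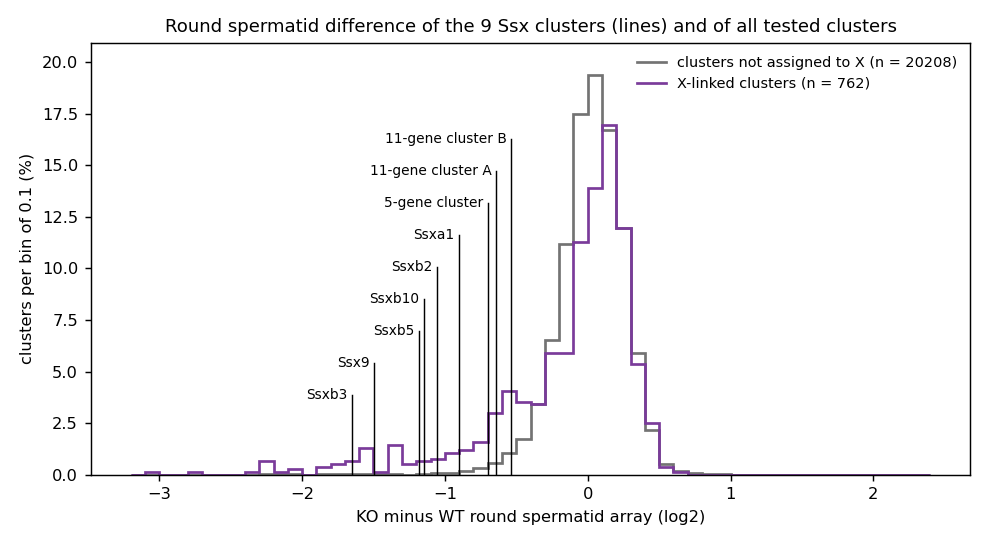
Share of clusters in bins of 0.1 by the log2 difference between the KO and the WT round spermatid array, for X-linked clusters (purple) and clusters not assigned to X (grey). Black lines mark the 9 Ssx clusters, which are also counted among the X-linked ones and all lie below 0. Ssxb3 and Ssxa1 were dim in KO, so the place of their lines is no exact size. The height of a line carries no value.

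In pachytene spermatocytes the Ssx differences between genotypes were smaller and in part within the replicate spread. The differences of the means ran from -0.50 for the 5-gene cluster to -0.14 for Ssxb5, with a median of -0.27 (median of all tested clusters 0.03). In 4 of 7 clusters both KO arrays lay below both WT arrays, a pattern found in 11.3% of all tested clusters and 13.4% of X-linked ones. For Ssxb2 the arrays were nearly level at the edge, 6.941 in the higher KO and 6.945 in the lower WT array. Ssxb3 and Ssxa1 were dim on all pachytene arrays. Ssxb5 had means of 6.63 ± 0.04 in WT and 6.49 ± 0.09 in KO (SD, n = 2), and Ssxb10 of 6.52 ± 0.15 and 6.07 ± 0.20 (SD, n = 2). Ssx9 and both 11-gene clusters overlapped between the genotypes, and their KO means were above the WT means once KO pachytene array 2 was left out (by 0.03, 0.14 and 0.20).

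KO pachytene array 2 lay below array 1 in 7 of 7 Ssx clusters, against 44.8% of all tested clusters and 51.8% of X-linked ones. Spermatid transcripts in general moved the same way: 1302 autosomal clusters at least 2-fold higher in round spermatids had a median gap of 0.48 between these arrays, and 219 such X-linked clusters other than Ssx one of 0.62. The 8 spermatid markers had a summed intensity of log2 15.21 on KO pachytene array 1 and 14.89 on array 2, with 15.01 and 14.90 on the WT pachytene arrays. None of these markers was dim on any array. Their part in the pachytene values of the Ssx clusters was not tested.

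Set within each genotype, the rise to round spermatids was smaller in KO for all 7 clusters, as it was for 45.8% of all tested clusters and 56.7% of X-linked ones. These shares are background only, since the family was taken up on this contrast. Without KO pachytene array 1 the rise was larger in KO for cluster A (by 0.032), cluster B (by 0.18) and the 5-gene cluster (by 0.042). In WT the rises ran from 1.13 (Ssxb10) to 2.10 (Ssxb5), and 7 of 7 clusters rose by at least 1 (2-fold), against 9.08% of all tested clusters and 33.3% of X-linked ones. In KO they ran from 0.38 (Ssx9) to 1.73 (cluster B), and 5 of 7 rose as far, against 6.74% and 24.4%. On the log2 scale the KO rise was 22.0% of the WT rise for Ssx9, 37.7% for Ssxb10, 50.5% for Ssxb5 and 70.0% for Ssxb2, and between 79.5% and 87.9% for the shared clusters. Both comparisons rest on 1 spermatid array each. The difference of the differences was -1.35 for Ssx9, -1.04 for Ssxb5, -0.70 for Ssxb10 and -0.58 for Ssxb2, and between -0.38 and -0.20 for the shared clusters. At -1 or below were 0.191% of all tested clusters and 2.76% of X-linked ones, and nothing is read from this for the family. For Ssxb3, first named on this value, 5 of the 6 values behind it were dim.

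**Figure D3:**
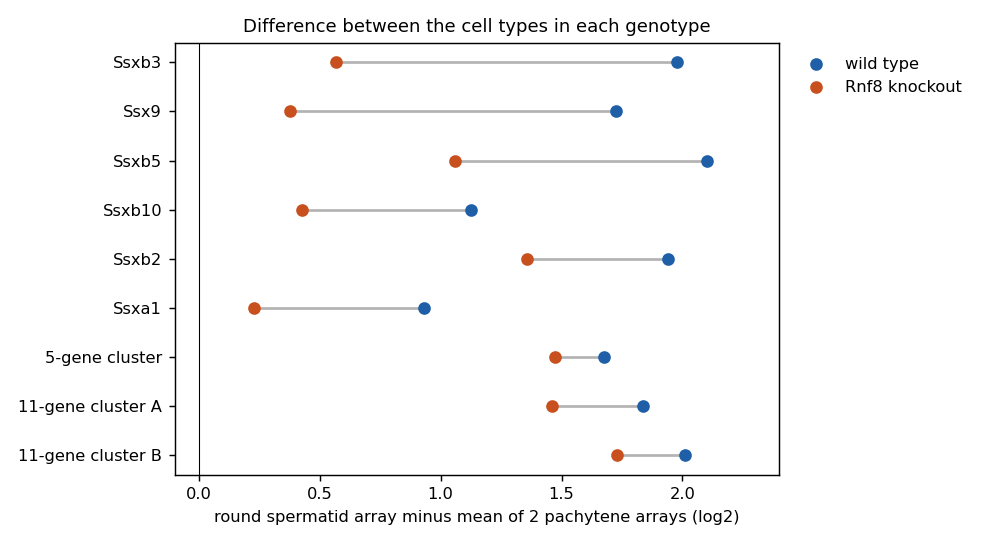
Log2 difference between the round spermatid array and the mean of the 2 pachytene arrays, for WT (blue) and KO (orange), with a grey line joining the genotypes of 1 cluster. The KO point lies left of the WT point in each of the 9 clusters, with a difference of -0.20 in the 5-gene cluster and -1.35 for Ssx9. The points of Ssxb3 and Ssxa1 rest on dim values.

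Of the printed pairs of windows, Ssx9 and Ssxb5 were at -1.50 and -1.18 between genotypes in round spermatids. Ssxb2 was at -1.06 and Ssxb3 is not sized, so that pair is not compared. Over the 6 arrays the 9 clusters had Pearson correlations between 0.80 and 1.00 with each other (median 0.94 over 36 pairs). The clusters share arrays, cell types and in part the listed accessions, so this is only a description.

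Marker lists of the 2 fractions and of other cells also differed between genotypes in round spermatids, by up to 0.60 for the Leydig gene Cyp17a1. No contrast with the Ssx clusters is read from them, since the family was taken up on this difference. The 8 spermatid markers ran from -0.23 to 0.09 between the KO and the WT round spermatid array, and the 8 pachytene markers from -0.38 to 0.16. Spermatogonial markers had a median of 0.30 with 8 of 10 above WT, and peritubular and vessel markers one of 0.33 with 5 of 5 above WT. Of all 20970 tested clusters 11909 were above WT, with a median of 0.03. Summed intensities of the spermatogonial markers were log2 11.54 and 11.77, and of the peritubular and vessel markers 11.27 and 11.64, in WT and KO round spermatids. Sertoli markers had a median of 0.21, Leydig markers one of 0.11 and macrophage markers one of -0.10. Only 1 marker, a Leydig one (Hsd3b1), was dim in either spermatid array. The part of these markers in the Ssx values was not tested.

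The same lists moved between the cell types, beside the rise of the Ssx clusters. In round spermatids 6 of 6 tested Leydig and 5 of 8 tested Sertoli markers were lower (limma, adjusted p of 0.05), against 16.2% of all tested clusters. Against 17.8% of all, higher were 2 of 10 spermatogonial and 2 of 4 tested macrophage markers, and 1 of 5 peritubular and vessel markers, the matrix gene Dcn (2.86). Spermatogonial markers had summed intensities of log2 11.47 to 11.64 in pachytene cells, close to the spermatid values above. Sertoli markers fell from between 12.23 and 12.58 in pachytene cells to 11.43 and 11.60 in WT and KO round spermatids. Leydig markers fell from between 12.20 and 12.75 to 10.03 and 10.32. Macrophage markers went from between 8.93 and 8.997 to 9.47 and 9.34, and peritubular and vessel markers from between 10.18 and 10.44 to the spermatid values above. Their part in the rise of the Ssx clusters was not tested.

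The genes next to the Ssx loci lay on both sides of WT. No contrast with the Ssx genes is read from them, since the family was taken up on this difference. The nearest 5 genes with a single-gene cluster on each side of the block ran from -0.84 to 0.40 between genotypes in round spermatids. Of these, 4 of 10 were below WT and none at least 2-fold lower, against 48.8% and 7.87% of X-linked clusters. The amino acid transporter gene Slc38a5, next to Ssxb10, was at 7.91 in the WT and 8.31 in the KO spermatid array. The ferritin-like Fthl17f, on the side of Ssxb5, was at 7.54 and 7.66. The lowest was 4930402K13Rik, at 9.47 and 8.63. Tbc1d25, a Rab GTPase-activating protein gene, and Xk, which encodes a membrane protein of red cells, rose after meiosis in WT by 1.82 and 1.56 and were at -0.06 and -0.12 between genotypes. Around Ssxa1 the 10 neighbours ran from -0.81 to 0.33, with 3 of 10 below WT and again none at least 2-fold lower, beside the same X-linked shares. Spaca5, a sperm acrosome gene beside Ssxa1, lay at 10.11 in the WT and 10.27 in the KO array.

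**Figure D4:**
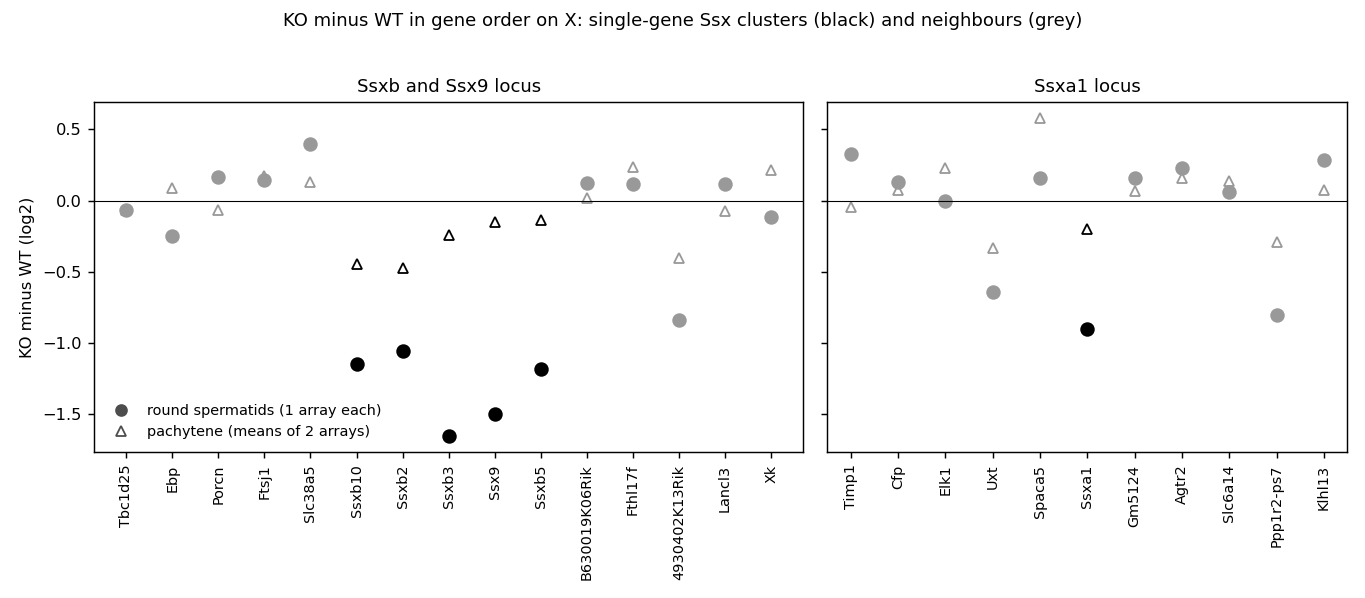
Log2 difference between KO and WT for single-gene Ssx clusters (black) and the nearest tested genes on either side (grey), in gene order along X, with round spermatids as filled circles and pachytene means as open triangles. The grey circles lie between -0.84 and 0.40. The black circles of Ssxb3 and Ssxa1 have a dim KO value, so their place is no exact size. The shared Ssx clusters, between -0.70 and -0.54, are not drawn. No contrast between black and grey is read, since the family was taken up on this difference. The horizontal axis is order, not distance.

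Among other X-linked testis families, the fall in KO round spermatids was uneven. Of 58 clusters with distinct values, 34 rose and 2 fell between the cell types (44.1% and 1.97% of all X-linked clusters). In KO round spermatids 7 of the 58 lay at least 2-fold lower (7.87% of all X-linked clusters). Of these 5 belonged to Samt (5 of 6 clusters, median -1.54), 1 to Xlr and 1 to Rhox (Rhox11, -1.76). Slx, a multicopy spermatid family, had 4 of 4 clusters higher in round spermatids and a median of -0.46 between genotypes. The melanoma antigen families Magea and Mageb are cancer-testis genes as SSX genes are. They had 3 of 10 clusters higher in round spermatids and none at least 2-fold lower in KO, against 44.1% and 7.87% of X-linked clusters. Fthl17, most of whose genes lie beside the Ssx block, had 1 of 6 clusters higher, that of Fthl17a, which lies elsewhere on X, and a median of 0.27 between genotypes. Among all X-linked clusters other than Ssx that were at least 2-fold higher in round spermatids, 44 of 219 (20.1%) lay at least 2-fold lower in KO, and among autosomal ones 9 of 1302 (0.691%).

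The list of partner genes holds genes known to work with SSX proteins, and Prdm9 for its SSXRD domain. Those tested were above the lower quartile on every array, and most did not pass the test between the cell types. Of 26 tested partner genes, 3 were higher and 5 lower in round spermatids (limma, adjusted p of 0.05), against 17.8% and 16.2% of all tested clusters. Ss18, the fusion partner of SSX in synovial sarcoma, did not pass at 0.05 (SE 0.12, adjusted p = 0.810), and its values lay between 8.71 and 8.97 on all 6 arrays. Ssx2ip rose by 0.53 (SE 0.10, adjusted p = 0.00672), Bmi1, a Polycomb repressive complex subunit, by 0.74 (SE 0.15, adjusted p = 0.00716), and Prdm9, the recombination hotspot factor that itself carries KRAB and SSXRD domains, by 0.45 (SE 0.10, adjusted p = 0.0126). Of the BAF subunits, 4 fell in limma: Smarcd1 at -1.38 (SE 0.11, adjusted p = 3.51e-04), the ATPase Smarca4 at -0.79 (SE 0.11, adjusted p = 0.00158), Smarcb1 at -0.61 (SE 0.11, adjusted p = 0.00421) and Brd9 at -0.36 (SE 0.10, adjusted p = 0.0308). Smarca2, Smarcc1 and Arid1a, which are BAF subunits too, did not pass, at -0.24, -0.07 and -0.08. Nor did Ss18l1 and Bicra, also on the list, at -0.24 and 0.30. Rnf2, a catalytic subunit that ubiquitylates histone H2A, fell by 0.69 (SE 0.19, adjusted p = 0.0272), but Ring1, also on the list, did not pass, at 0.21. Between genotypes in round spermatids the 26 partners ran from -0.29 to 0.41 with none at least 2-fold lower, as were 0.672% of all tested clusters. Ssx2ip lay at 11.83 in WT and 11.77 in KO.

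The genes with the profile most like that of an Ssx cluster were found by Pearson correlation over the 6 arrays. For Ssxb3 they were Gm12888, Hmces (a DNA abasic-site shield), Fam124b, and the X-linked Gm5071 and Apool (a mitochondrial cristae protein), with Pearson r between 0.993 and 0.996 among 3692 candidate clusters. Hmces lay at 9.05 and 9.14 in WT and 9.02 and 9.04 in KO pachytene cells, and at 10.30 in WT spermatids and 9.37 in KO ones. Gm5071 was at 8.85 and 7.09 there. Gm12888 was dim on 4 arrays and Apool on 5. For 11-gene cluster B, the Ssx cluster with the highest mean, they were Pldi, the ubiquitin ligase gene Rnf11, the fatty acid elongase gene Elovl6, 4932415M13Rik and Kremen1, with r between 0.998 and 1.00 among 2695 candidates. Pldi lay at 11.37 in WT spermatids and 10.88 in KO ones. Such values over 6 arrays of 4 groups mainly reflect the group means.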

How the data were processed

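The authors deposited 1 linear intensity per transcript cluster and array. The submitters' processing notes name RMA and Expression Console 1.1 of Affymetrix, but how these were set the sources used here do not say. Log2 of each intensity was taken. The platform annotation gave 1 symbol to 21789 of 35556 clusters and several to 1621, and the 12146 it does not list were left out. Clusters, not genes, were fitted, because some clusters name several Ssx copies. Testing covered the 20970 named clusters that reached log2 6 on any array, fitted with limma 3.58.1 in R 4.3.3 (lmFit and eBayes, additive in genotype and cell type, 3 residual degrees of freedom, Benjamini-Hochberg over all clusters). For a gene of a list, the cluster of highest mean was used.

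The members, the gene lists and the rule for named genes were chosen with earlier results of these data known. The rule takes every Ssx cluster, the partner genes past the threshold, and, for Ssxb3 and the Ssx cluster of highest mean, the 5 single-gene clusters with the highest Pearson r over the 6 arrays among those with at least 0.5 of its SD. Neighbours, partner genes that did not pass, single markers and other X-linked genes were named after their values were seen. Alternatives covered the filter, the set of clusters, a second quantile normalization, an added 32, the prior, the design, a replicate block and each array left out. Windows at gene starts are RefSeq's, aligned end to end with Biopython 1.88. The number of arrays limits the precision, and the arrays of a group carry no statement of separate animals.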

Additional observations from a re-analysis of the deposited data

Results flagged for a closer look

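Among the Ssx clusters and their partner genes, 2 partner genes had KO pachytene arrays entirely on one side of the WT pachytene arrays and a KO round spermatid array on the other side of WT. For Rab3ip, KO minus WT was 0.21 in pachytene cells and -0.01 in round spermatids, a difference of -0.23. For Pcgf2 it was -0.04 and 0.24, a difference of 0.28. These differences were not tested, and no Ssx cluster had this pattern. How many of all tested clusters had it was not counted. The pachytene part alone, with both KO arrays the lower ones, was found in 11.3% of all tested clusters. Margins were narrow. The higher KO pachytene array of Pcgf2 read 6.983, and its lower WT pachytene array 6.996. For Rab3ip the side in round spermatids rests on the -0.01 above. Nothing is therefore read from these 2 genes.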

How the results depend on the processing

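The direction of the cell type difference was the same wherever an Ssx cluster was tested. For Ssxb3 and Ssxa1, kept through the WT round spermatid array alone, that is no check. Ssxa1 was not tested with a filter of log2 7, Ssxb3 and Ssxa1 not without the WT round spermatid array, and the shared clusters not among single-gene ones. Calls of Ssxb3 and Ssxa1 are therefore not counted. The other 7 clusters all passed without the filter, after a second quantile normalization and with a trended and robust prior. They also all passed in the fit with 4 groups, with all clusters of the table and with 32 added. With a filter of log2 7 they all passed too. There Ssx9 and Ssxb10 reached 7 on the WT round spermatid array alone, so their calls under that filter are no check. With single-gene clusters only, Ssxb2, Ssxb5, Ssx9 and Ssxb10 all passed. The median rise over the 6 single-gene clusters, Ssxb3 and Ssxa1 included, was 1.16. Over all 9 clusters the median was 1.57 in the main fit and 1.32 with 32 added. With the replicate number as a block, Ssx9 alone of the 7 did not pass (limma adjusted p = 0.053), and 6037 clusters passed in all against 7128. The labels do not say that the numbers pair arrays, and deviations of same-numbered pachytene arrays correlated at -0.20. With the numbers of the KO arrays crossed, a choice made after seeing the data, all 7 passed and 7772 in all. When each array was left out, the count over all clusters ran from 2686 to 10013. Over the 7 Ssx clusters counted here, the number that passed ran from 5 to 7. With Ssxb3 and Ssxa1 included where tested, it ran from 5 of 7 to 9 of 9, so these ends differ in the clusters covered. The median Ssx rise ran from 1.36 over 7 clusters, without the WT round spermatid array, to 1.84 over 9, without the KO one. Over all 9 clusters, the dim Ssxb3 and Ssxa1 included, the median difference between genotypes in pachytene cells ran from -0.59 to -0.094. The median difference of differences over the same 9 ran from -0.84 to -0.56. The difference of differences turned sign without KO pachytene array 1 in 11-gene cluster A (range over arrays left out -0.78 to 0.032), cluster B (-0.74 to 0.18) and the 5-gene cluster (-0.45 to 0.042). KO minus WT in pachytene cells turned sign without KO pachytene array 2 in cluster A (-0.67 to 0.14), cluster B (-0.72 to 0.20) and Ssx9 (-0.34 to 0.032). Between the round spermatid arrays all 9 differences kept their sign after a second quantile normalization. Adding 32 keeps the order of any 2 values, so it could not change a sign. No array could be left out of this comparison, which rests on 1 array of each genotype.

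The main limits are the single round spermatid array of each genotype, the dim values of Ssxb3 and Ssxa1, and clusters that name several near-identical copies.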
